A study of Mus musculus with 99 samples.

Results

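Among 67 converted inner hair cells (cIHCs), the 22 cells with the highest summed level of the immediate early genes Fos, Egr1 and Atf3 were compared with the 22 cells with the lowest sum. The cells were chosen by adding the CPM (counts per 1000000, the reads of a gene scaled to the total counted reads of the cell) of the 3 genes in each cell and ranking the cells. The 44 compared cells, the 23 cells in between and 32 wild-type outer hair cells (OHCs) made up the 99 cells of the series. Because these 3 genes chose the cells, they give no result of their own, and every other gene of the same cells is described without a test.

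The cIHCs came from C57BL/6 mice of genotype Slc26a5-CreER/+; Rosa26Tbx2/+ at postnatal day 42. The OHCs came from Slc26a5-CreER/+; Ai9/+ mice of the same strain at postnatal day 30. Both genotypes carry Slc26a5-CreER, which is driven by the prestin gene and so acts in OHCs. In the cIHC genotype it switches on Tbx2, a transcription factor that OHCs lack and inner hair cells keep. Cells carrying the red tdTomato protein were freed from the cochlea by papain, protease and dispase and picked by hand, and 1 Smart-seq library was made per cell. No animal is named for any cell, so each condition counts as 1 sample. Cells are not replicates, and no p-value or standard error is given.

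Immediate early genes are transcribed within minutes of a stimulus, without new protein synthesis. Fos is a subunit of the AP-1 transcription factor, Egr1 a zinc finger factor, and Atf3 a stress-induced member of the ATF/CREB family. Growth factors, calcium entry and cell damage all raise them, and so does the enzymatic dissociation of a tissue. They are switched off again within hours by the phosphatases and RNA decay factors that they help to induce.

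The summed level ran from 788 to 3346 CPM in the high cells, with a median of 1328. It ran from 438 to 748 CPM in the middle cells and from 0.129 to 369.5 CPM in the low cells, with medians of 546 and 159. The order had no gap at either edge: the lowest high cell stood at 787.7 CPM and the next cell at 748.5 CPM, and at the other edge the values were 437.6 and 369.5 CPM. Egr1 was the largest of the 3 levels in 14 of the 22 high cells, Fos in 5 and Atf3 in 3. The sum was under 1 CPM in 5 of the 22 low cells. Reads of Atf3 reached 10 CPM in 15 high, 14 middle and 7 low cells, so the high cells were not alike in which of the 3 genes they carried.

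**Figure D1:**
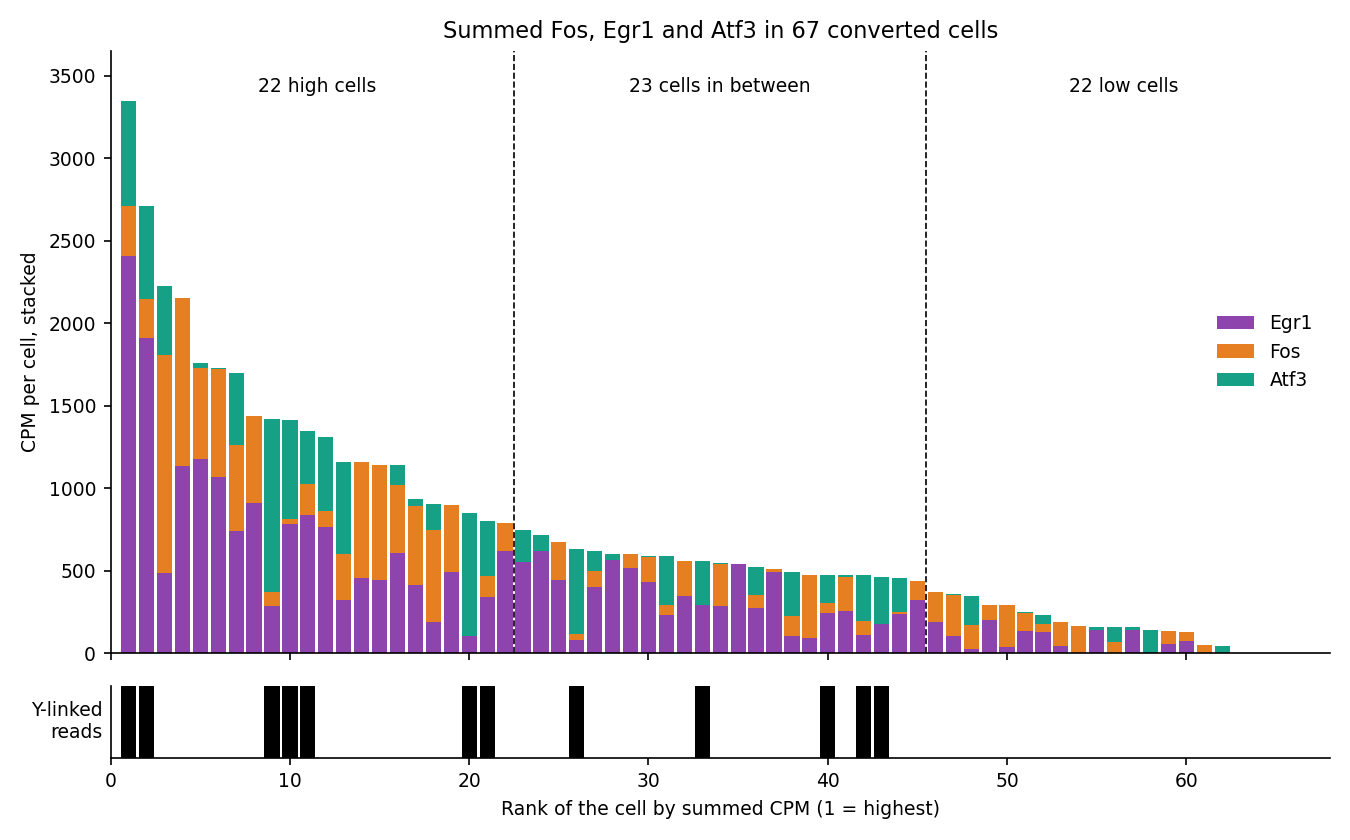
Stacked CPM of Egr1, Fos and Atf3 in each of the 67 cIHCs, ordered by their sum, with dashed lines at the edges of the high and low cells; black bars below mark the 12 cells with reads of Y-linked genes. The sum falls from 3346 CPM to 0.129 CPM with no gap at the dashed lines, and no marked cell lies among the 22 low cells. Within the low cells it drops from 44.7 CPM at rank 62 to 0.848 CPM at rank 63.

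Some cells stood apart within this ranking. Reads of Y-linked genes (Uty, Kdm5d, Eif2s3y and Ddx3y, above 10 CPM in sum) were found in 7 high, 5 middle and 0 low cells, and Xist, the RNA of the inactive X chromosome, in 15, 18 and 22 cells. No cell had both. The 12 cells with Y-linked reads are those titled 1 to 12, and their Atf3 level ran from 171.2 to 1048 CPM with a median of 426.5, against a median of 3.85 CPM in the 55 cells with Xist. Their median mitochondrial share of counts was 5.65%, against 3.19% in the Xist cells. Cells of both sexes, and so of at least 2 mice, entered the ranking unevenly, and sex and mouse cannot be told apart here. For many of the genes and lists below, values are also given from a ranking within the 55 Xist cells, 18 highest against 18 lowest, an alternative chosen after seeing the data. Among the Xist cells, those titled 13 to 22 had mitochondrial shares of 4.25% (cell 21) to 9.61% (cell 15). Their Tbx2 level ran from 113 CPM (cell 18) to 708 CPM (cell 15). Cells 14 and 17 to 22 were low in both rankings. Cell 13 was high in both, cell 15 in between in both, and cell 16 high only in the Xist ranking. The part of these cells in the values of either ranking was not tested.

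The high, middle and low cells had median totals of 7687890, 7735087 and 7867730 counts, and single cells ran from 4677682 to 13792672. Their median numbers of genes with reads were 8496, 8694 and 8370. At this depth the 95% Poisson interval of a pooled level spans at most 3.32% to either side for the 6477 genes at 20 CPM or more in both sums. These intervals cover counting error only, since several reads can stem from 1 molecule, and cells differed by far more. Levels of different genes are not compared with each other, since CPM does not correct for transcript length.

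Each gene was compared in 2 ways. The first is the log2 ratio of pooled CPM, in which the counts of the 22 high cells and of the 22 low cells are summed before division. The second is the pair share, the percentage of the 484 pairs of 1 high and 1 low cell in which the high cell has the larger CPM, with ties split evenly. A share of 50% means no tendency. Of the 9749 genes with at least 10 CPM in the larger sum, 880 (9.03%) had a ratio of at least 1 and 758 (7.78%) a ratio of at most -1. Far fewer genes separated the cells evenly: 26 genes (0.267%) also reached a pair share of 75%, and 20 genes (0.205%) also had a share of 25% or less. Over all 9749 genes the median ratio was 0.02 and 51.4% of ratios were above 0. A share of at least 65% was reached by 644 genes (6.61%) and a share of at most 35% by 495 genes (5.08%). The rule that chose the cells used these same cells, so these percentages stand beside the counts below as a description and support nothing.

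The other early response genes stood higher in the high cells more often than lower, by modest amounts. The 4 lists held 55 of them, and 26 reached the level to be measured. All 26 were at 10 CPM or more in the low sum. Of these, 23 had a ratio above 0 and 3 below, with a median log2 ratio of 0.53 against 0.02 for all genes. No listed gene passed both the fold and the 75% share, but 9 of 26 (34.6%, against 6.61% of all genes) reached a 65% share. In the Xist ranking 18 of 27 had a ratio above 0, the median was 0.58, and 10 of 27 (37.0%, against 9.57% of all genes) reached a 65% share. There Arc, among the 10, and Nr4a2 reached the level only through the high cells and Nr4a1 only through the low cells. This fixes the direction of each. The summed CPM of the 55 genes had a median of 5026 in the high, 3902 in the middle and 2993 in the low cells, and the ranges overlapped, at 2722 to 6941 CPM in the high and 2312 to 5502 CPM in the low cells.

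Jun, Junb and Jund, which pair with Fos to form AP-1, were the clearest of the AP-1 list. Junb ran from 78.2 to 1402 CPM in the high cells (median 649.7) and from 0 to 1263 CPM in the low cells (median 222). Its pooled levels were 644 and 365 CPM, a log2 ratio of 0.82 (95% counting interval 0.81 to 0.84) and a pair share of 72.7%. Almost the whole range was shared, yet the middle cells lay in between at a median of 376 CPM. Jun had medians of 586 and 421 CPM, a ratio of 0.68 and a share of 69.6%, and it had reads in every high and low cell. Jund, the member that is made steadily in most cells, had medians of 76.9 and 60.5 CPM, a ratio of 0.28 and a share of 65.7%. The Xist ranking gave Junb a share of 78.7%, while Jun and Jund had 64.2% and 62.3%, under 65%. Mafk and Mafg, small Maf proteins that can pair with Fos, went opposite ways, at ratios of 1.25 and -0.60 and shares of 61.7% and 43.8%. Fosb, Fosl1, Fosl2, Jdp2, Batf, Batf3 and Maff were under 10 CPM in both sums. Junb shares exon sequence with Prdx2 on the other strand, and Jun with the antisense gene Junos, and with the strand setting not given their reads may be counted together.

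The relatives of Egr1 were low. Egr2, Egr3 and Egr4 were under 10 CPM in both sums, as were Nr4a2, Nr4a3, Klf2, Klf4 and Klf10. Nr4a1, an orphan nuclear receptor usually induced together with Egr1, had reads in only 5 high and 5 low cells and was lower in the high cells, at 4.32 against 11.6 pooled CPM, with 1 low cell giving 43.5% of its low counts. Klf6, a zinc finger factor of the early response, was at 155 and 108 CPM with a share of 60.6%, and Klf9, a target of hormone receptors, at 91.7 and 105 CPM with a share of 44.01%.

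Genes that shut the response off came next. All 11 measured feedback genes had a ratio above 0 (8 of 11 in the Xist ranking), and 5 reached a 65% share. Socs3, an inhibitor of cytokine receptor signalling, ran from 0 to 471 CPM in the high cells (median 82.2) and from 0 to 395 CPM in the low cells (median 0). It had reads in 19 of 22 high and 10 of 22 low cells, with pooled levels of 136 and 59.97 CPM, a ratio of 1.18 and a share of 74.8%, just under the 75% limit. Zfp36l1, an RNA decay factor that binds AU-rich elements, had reads in 15 high and 4 low cells, medians of 24.8 and 0 CPM, a ratio of 1.33 and a share of 74.2%. Both genes had reads in more of the high cells, and both had an OHC median of 0 CPM. Ier2 had reads in 18 high and 12 low cells, with medians of 81.5 and 0.158 CPM and a share of 67.8%. Btg2, an antiproliferative factor that recruits the deadenylation machinery, had reads in every cell of both groups, with medians of 956 and 611 CPM, a ratio of 0.55 and a share of 69.6%. Dusp6, a phosphatase of ERK, had a ratio of 1.72 and a share of 66.5%. Dusp1, a phosphatase of several MAP kinases, had the larger ratio of 1.75 but a share of only 58.5%, and 1 high cell gave 47.2% of its high counts. From the Xist ranking the shares were 79.2% for Socs3, 77.5% for Zfp36l1, 80.2% for Ier2, 71.6% for Btg2 and 69.8% for Dusp6.

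**Figure D2:**
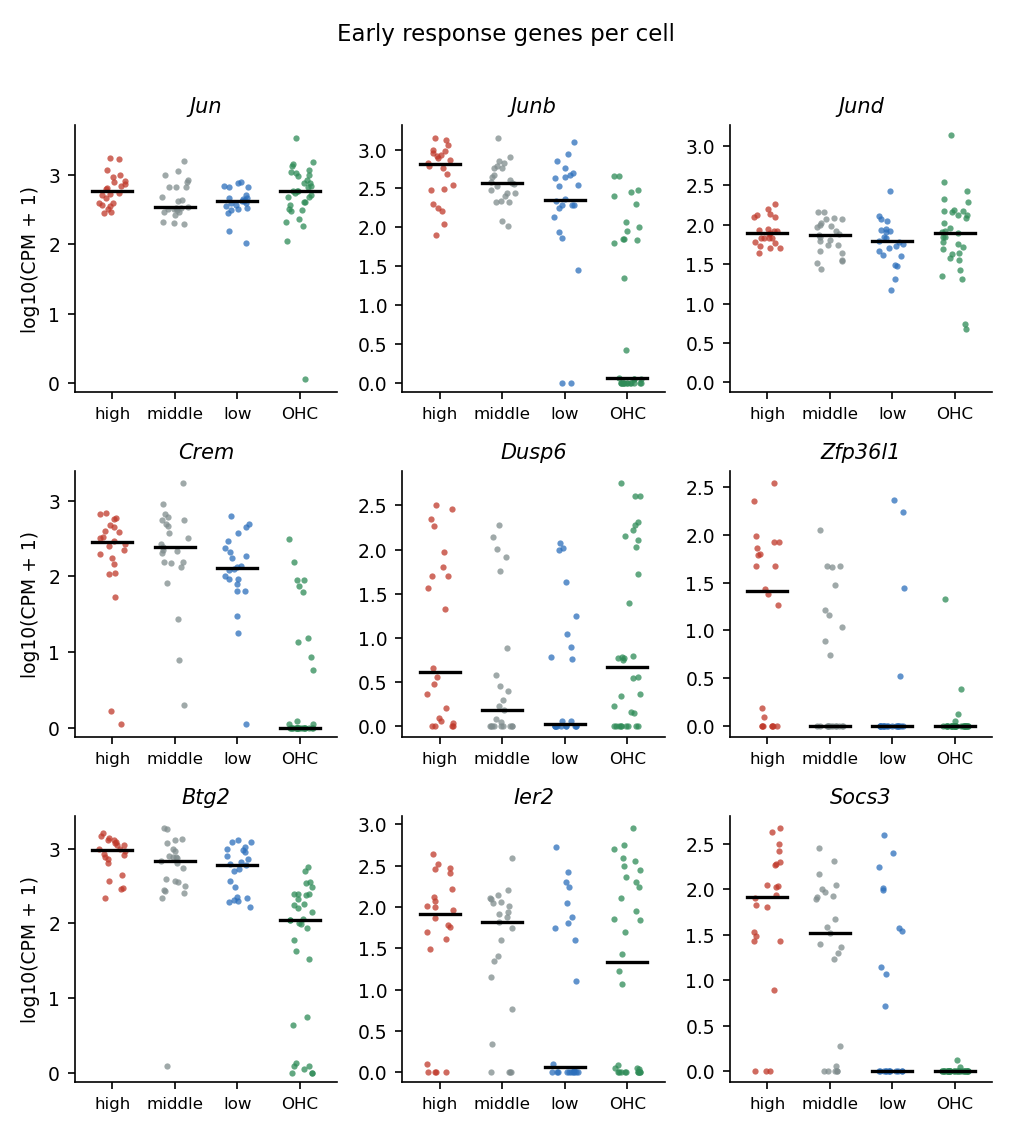
CPM per cell on a log10(CPM + 1) scale for the 9 early response genes with a pair share of at least 65%, in 22 high, 23 middle and 22 low cIHCs and 32 OHCs; each point is a cell and the black line is the median. The high cells have the highest median of the 3 cIHC groups in each panel, and the groups overlap in each panel.

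Of the genes that follow calcium entry and activity in neurons, all 7 measured had a ratio above 0 (4 of 7 in the Xist ranking), and only Crem reached a 65% share. In the Xist ranking Crem, Homer1 and Arc did, 3 of 7 (42.9%, against 9.57% of all genes). Homer1 had a ratio of 1.13 and a share of 70.8% there, and Arc a share of 67.4%. Arc reached the level there only through the high cells. Crem, a CREB family factor whose short form represses cAMP responses, had medians of 282 and 128 CPM, a ratio of 0.59 and a share of 67.98% (68.8% in the Xist ranking). Bdnf, the neurotrophin that hair cells supply to their afferent fibres, was close between the groups at 675 and 569 pooled CPM (share 60.3%). Arc, a synaptic plasticity gene, had reads in 8 high and 4 low cells. Npas4, Nptx2, Pcsk1, Plk2 and Scg2 were under 10 CPM in both sums.

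The promoters of the early genes were read for letters like those that AP-1, CREB/ATF and EGR factors bind. These were chosen because the ranking genes encode such factors. RefSeq windows on GRCm38.p6, from 250 bases before to 50 after each start, were held for 22 of the 26 measured early genes. They were searched on both strands for TGANTCA (AP-1), TGACGTCA (the cAMP response element, CRE) and GCGTGGGCG (EGR), and for the CArG box of serum response factor. None of these contains another. N stands for any base, which is wider than the usual AP-1 site with C or G in the middle. AP-1 letters were in the windows of 3 of these 22 genes (13.6%), against 5.43% of the 7680 measured genes with a window and 8.97% of all 27025 genes with one. In the AP-1 stretches printed below the middle base is A or T, so they are not the usual site. CRE letters were in 3 of 22 (13.6%), against 4.01% and 2.03%. EGR letters were in 0 of 22, against 1.38% and 0.707%, and a CArG box in 1 of 22, Zfp36 (4.55%, against 1.497% and 1.81%). Of the 24 higher genes past both limits that have a window, 0 held AP-1, 1 held CRE and 2 held EGR letters, and of the 14 lower genes with a window 1 held CRE letters. The 6 early gene windows with AP-1 or CRE letters are shown around the match, with the matched letters in capitals, 5′ to 3′ on the gene's own strand.

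Zfp36l1: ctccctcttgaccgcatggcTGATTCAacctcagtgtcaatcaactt
Klf9: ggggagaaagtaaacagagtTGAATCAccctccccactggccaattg
Bdnf: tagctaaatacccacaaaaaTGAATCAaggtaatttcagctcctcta
Btg2: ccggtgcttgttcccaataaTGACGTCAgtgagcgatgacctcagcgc
Dusp1: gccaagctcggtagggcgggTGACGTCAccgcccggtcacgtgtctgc
Errfi1: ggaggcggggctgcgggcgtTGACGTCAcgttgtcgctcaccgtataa

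The Btg2 stretch lies at chr1:134079294-134079341 (minus strand), Dusp1 at chr17:26508588-26508635 (minus strand), Errfi1 at chr4:150854999-150855046 (plus strand), Zfp36l1 at chr12:80113116-80113162 (minus strand), Klf9 at chr19:23141117-23141163 (plus strand) and Bdnf at chr2:109676860-109676906 (plus strand). None of these stretches overlaps an annotated exon in GENCODE M21. Btg2 and Zfp36l1 are among the 9 genes with a 65% share, whereas Errfi1, an inhibitor of EGF receptor signalling, had a share of 53.6% and Klf9 one of 44.01%. A match describes letters, not a bound site.

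**Figure D3:**
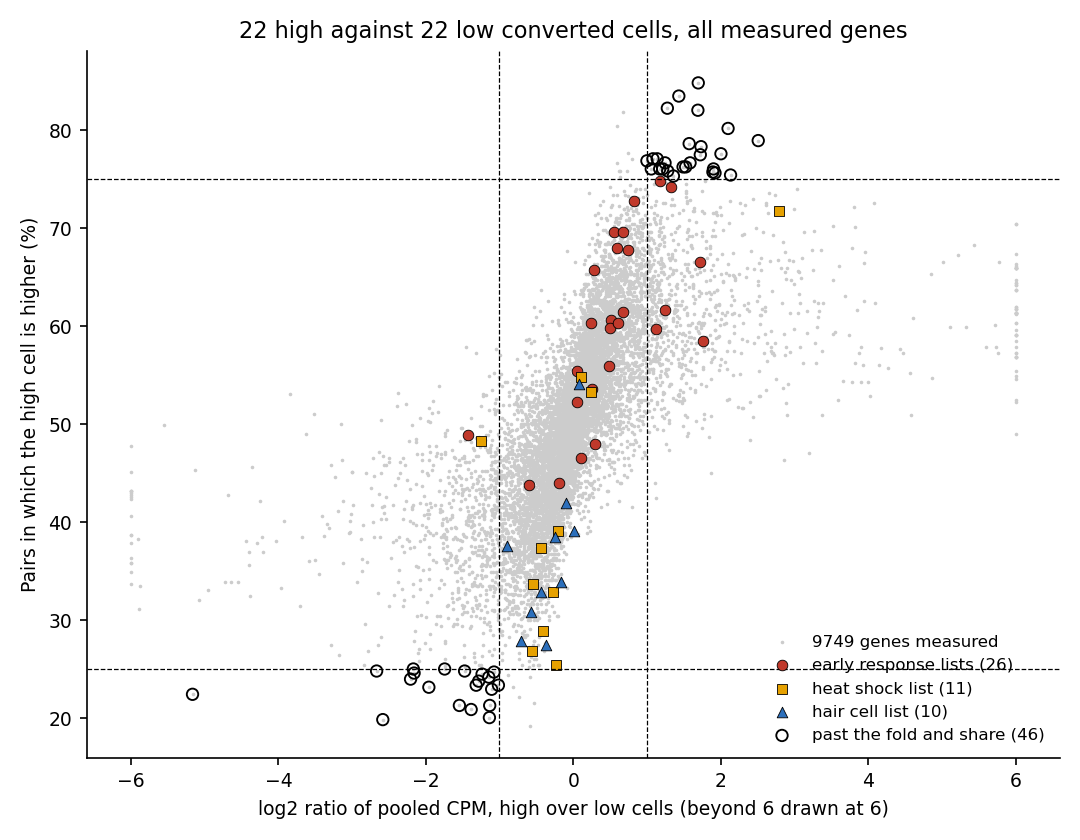
Log2 ratio of pooled CPM against the pair share for the 9749 measured genes, with the early response, heat shock and hair cell lists in colour, open circles at the 46 genes past both limits and dashed lines at the limits. The early genes lie mostly up and to the right, no listed gene lies past both limits, and many genes with large ratios have shares near 50%.

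Stress response lists showed no common direction. Of 11 measured genes of the integrated stress response, 5 had a ratio above 0 and 6 below, with a median of -0.01. Ppp1r15a, the phosphatase subunit that restores translation, had medians of 313 and 178 CPM and a share of 70.9%, and Atf4, the factor that drives the response, 155 and 110.2 CPM with a share of 66.7%. Phgdh, a serine synthesis enzyme and ATF4 target, lay the other way, with a ratio of -0.64 and a share of 32.6%. Among the Xist cells Ppp1r15a had a share of 59.9% and no gene of this list reached 65%. For the 12 endoplasmic reticulum chaperone and unfolded protein genes the median ratio was 0.24, and none reached a share of 65% or fell to 35%. For 10 measured genes of the NRF2 antioxidant list the median ratio was 0.36. Gclm, a subunit of the enzyme that starts glutathione synthesis, had medians of 142 and 84.4 CPM, a ratio of 0.69 and a share of 73.8% (71.6% in the Xist ranking). In the p53 list (10 measured, median 0.08) the cell cycle inhibitor Cdkn1a had reads in 9 high and 16 low cells, a ratio of -0.94 and a share of 30.99%, and in the Xist cells a ratio of -1.41 and a share of 27.3%. The NF-kB list had 4 measured genes with a median ratio of -0.32.

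Heat shock proteins lay mostly on the other side of 0. Of 11 measured, 8 had a ratio below 0 and 5 had a share of at most 35% (45.5%, against 5.08% of all genes), with a median ratio of -0.27. In the Xist ranking 9 of 10 had a ratio below 0, but only 2 of 10, Hsp90aa1 and Hspa1b, had a share of at most 35%. Hsp90aa1, an HSP90 chaperone, ran from 894 to 3359 CPM in the high cells (median 1722) and from 1037 to 4314 CPM in the low cells (median 2484), a ratio of -0.41 and a share of 28.9%. Its sister Hsp90ab1 had a ratio of -0.23 and a share of 25.4%. The mitochondrial chaperonins Hspd1 and Hspe1 had ratios of -0.54 and -0.56 and shares of 33.7% and 26.9%, but their exons overlap on opposite strands. The differences were small against the spread of single cells. Within the Xist cells Hsp90aa1 kept a share of 23.8%, while Hsp90ab1 was at 39.2%, Hspd1 at 36.7% and Hspe1 at 36.1%. Bag3, a cochaperone of HSP70, was higher, with reads in 14 high and 6 low cells and pooled levels of 10.02 and 1.45 CPM. It reached the level only through the high cells, which fixes its direction. In the Xist ranking it was at 9.66 and 1.61 CPM and was not measured. Hspa1a and Hspa1b are near-identical copies whose counts are uncertain.

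Atf3 is known from injured neurons, and most genes that accompany it there were low in these cells. Of 12 such genes, 4 were measured, and 3 of them, Flrt3, Tubb3 and Sprr1a, reached the level only through the high cells, which fixes their direction. Smad1 had medians of 93.4 and 39.1 CPM and a share of 67.8% (77.2% in the Xist ranking), and Flrt3 reads in 12 high and 4 low cells. Tubb3, a neuronal tubulin, had reads in 9 high and 1 low cells, and Sprr1a reads in 1 high cell and no low cell. Sox11, Gap43, Gal, Ecel1, Npy, Csf1, Stmn2 and Cebpd were under 10 CPM in both sums.

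A pair of calcium buffers of hair cells lay opposite ways. Calb1, the calcium buffer calbindin, ran from 0 to 26542 CPM in the high cells (median 11915), to 23127 CPM in the middle cells (median 6428) and from 0 to 21006 CPM in the low cells (median 1385). Its pooled levels were 11510 and 5731 CPM, a ratio of 1.01 and a share of 69.1%. The ranges of the groups overlapped almost fully, and the OHC median was 157 CPM. Calb2, the related buffer calretinin, lay the other way: 539 to 7711 CPM in the high cells (median 2904) and 2696 to 9755 CPM in the low cells (median 4665). Its ratio was -0.60 and its share 25.2%, with a middle median of 4120 CPM. Ranked among the Xist cells, Calb1 had a ratio of 1.24 and a share of 75.5%, and Calb2 a ratio of -0.75 and a share of 21.3%. Spearman's rho with the ranking over the 67 cells was 0.38 for Calb1 and -0.44 for Calb2, given as a description.

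Both groups carried Slc17a8 and Otof of the inner hair cell list, while some other members were found in only part of the cells. Slc17a8, the vesicular glutamate transporter of inner hair cells, was at 536 to 1867 CPM in the high and 736 to 2979 CPM in the low cells, against an OHC median of 0.136 CPM, and its share was 36.4% (39.2% in the Xist ranking). Otof, the calcium sensor of exocytosis, was lower in the high cells, with medians of 2698 and 3394 CPM, a ratio of -0.40 and a share of 26.9% (33.95% within the Xist cells). Of the 10 inner hair cell genes 7 had a ratio below 0, and only Otof and Calb2 had a share of at most 35%. Fgf8 of this list was sparse in the Xist ranking, at 10.4 and 3.57 pooled CPM. It had reads there in 27.8% of the high and 33.3% of the low cells. Of 10 genes common to both hair cell types, 8 had a ratio below 0 and 5 a share of at most 35% (4 of 10 in the Xist ranking), with a median ratio of -0.31. Myo6, a motor of the hair bundle base, had medians of 814 and 1453 CPM, a ratio of -0.71 and a share of 27.9%. Myo7a, another unconventional myosin of the bundle, had a ratio of -0.37 and a share of 27.5%. Pou4f3, the survival factor of hair cells, had medians of 206 and 334 CPM and a share of 30.8%, and the splicing factor Rbm24 medians of 171 and 346 CPM and a share of 32.9%. Cib2, of the transduction complex, was nearly level with a ratio of -0.16 at a share of 33.9%. Within the Xist cells the shares were 29.01% for Myo6, 25.9% for Myo7a and 25.9% for Rbm24, but 39.2% for Pou4f3 and 44.1% for Cib2.

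**Figure D4:**
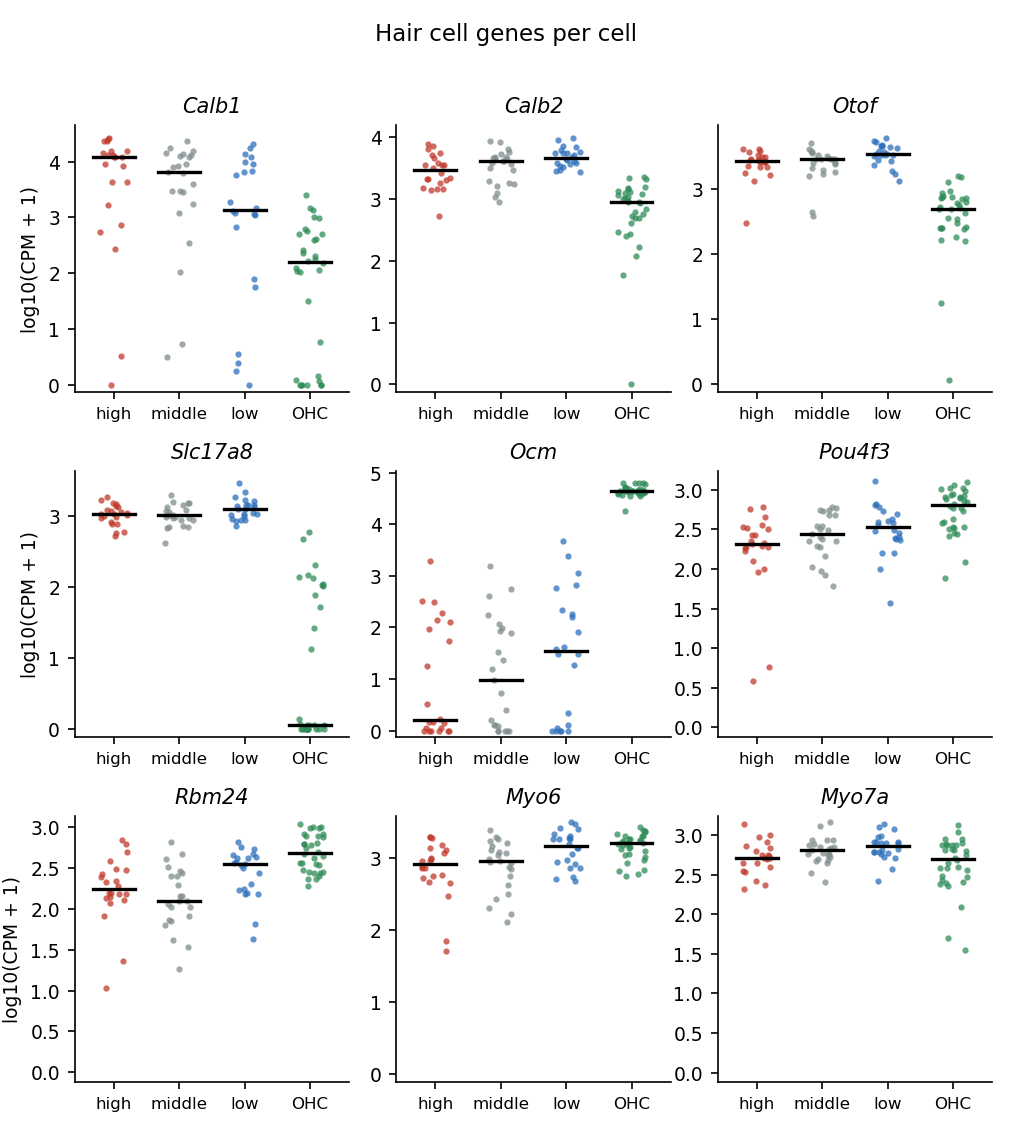
CPM per cell on a log10(CPM + 1) scale for 9 hair cell genes in 22 high, 23 middle and 22 low cIHCs and 32 OHCs; each point is a cell and the black line is the median. Calb1 has its highest median in the high cells and Calb2 in the low cells, and Slc17a8 and Otof are far above the OHC median in all 3 cIHC groups.

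Outer hair cell genes lay on both sides of 0. The 6 measured members had a median ratio of -0.06. Ocm, the oncomodulin of OHCs, had medians of 0.597 and 33.7 CPM in the high and low cells, far under the OHC median of 43601 CPM. Its ratio of -1.77 rested on few cells, since 1 low cell gave 44.5% of the low counts and 1 high cell 53.97% of the high counts, and the share was 40.3%. Ribbon synapse and calcium current genes were level, at a median ratio of -0.03 over 12 measured, with Snap25 alone reaching a 65% share and Cacna1d alone falling to 35% or less. Rprm, a cell cycle brake on the inner hair cell list, had reads in 17 high and 12 low cells and a share of 61.6%.

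Tbx2, the gene that was switched on, differed too. It ran from 163 to 2553 CPM in the high cells (median 803) and from 113 to 2270 CPM in the low cells (median 437), with pooled levels of 897 and 558 CPM. The ratio was 0.68, the share 71.9%, and within the Xist cells 78.4%. Reads of the inserted copy and of the mouse's own gene were not separated. The mitochondrial share of counts had medians of 3.22% in the high, 3.76% in the middle and 4.15% in the low cells. All 14 measured mitochondrial genes had a ratio below 0, with a median of -0.28, and 3 of 14 had a share of at most 35%. In the Xist ranking the median was -0.64 and 11 of 14 had such a share. The part of the Tbx2 level and of the mitochondrial share in the differences above was not tested.

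Markers of other cell types were mostly at or near 0 in both groups. None of 10 supporting cell genes and none of 5 glial genes was measured, and their summed CPM had medians of 0 and 0.569 in the high and 0 and 0 in the low cells. Single cells reached 109.5 and 76.1 CPM in the high and 62.997 and 119 CPM in the low cells. Of 8 blood and macrophage genes 1 was measured, the complement gene C1qb, at 82.95 and 29.8 pooled CPM. In the Xist ranking C1qb had 86.4 and 17.5 pooled CPM and a share of 67.4%. The blood list's sum ran up to 337 CPM in the high cells (median 13.7) and to 121 CPM in the low cells (median 1.29). Of 8 fibroblast, endothelial and stria genes 1 was measured, the collagen gene Col1a1, with a ratio of -0.54. Of 8 spiral ganglion genes 5 were measured, Calb1, Gata3, Nefl, Nefm and Tubb3, of which hair cells also make Calb1 and Gata3. The list's sum had medians of 12447 and 2448 CPM, but it is largely Calb1, described above. The median ratio of the 5 genes was -0.22, with 2 above 0 and 3 below. Tubb3 and Calb1 reached a 65% share, and only Gata3 had a share of at most 35% (37.7% in the Xist ranking). In the Xist ranking Nefl had pooled levels of 90.0 and 162 CPM (share 27.2%). Nefm, whose exons overlap Nefl on the other strand, had 192 and 163 CPM there (share 57.6%). Prph, Pmp22, Epyc, Fabp7, Sparcl1, Fgfr3, Ptprc and Cx3cr1 had no read in any of the 44 cells. The part of these signals in the differences was not tested.

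The 46 genes past both limits belonged to none of the lists of early, stress or hair cell genes. Hibch, a mitochondrial enzyme of valine breakdown, had the largest share of the genes past both limits. It ran from 0 to 258 CPM in the high cells (median 105) and from 0 to 115 CPM in the low cells (median 16.2), with pooled levels of 111 and 34.1 CPM, a ratio of 1.70 and a share of 84.8%. The ranges overlapped, but the middle cells lay between at a median of 58.2 CPM. Cryzl2, an oxidoreductase related to quinone reductase, had medians of 73.8 and 15.2 CPM and a share of 83.5%. Gcsh, the H protein of the mitochondrial glycine cleavage system, had medians of 114 and 31.8 CPM and a share of 82.2%. Mthfd1, a cytosolic enzyme of the folate pathway, had reads in 19 high and 10 low cells and a share of 77.5%. Within the Xist cells the shares of these 4 enzymes were 84.7%, 80.2%, 84.3% and 71.9%.

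The other higher genes had varied roles. Litaf, a late endosomal membrane protein, had medians of 107 and 0 CPM, reads in 20 high and 10 low cells, a ratio of 1.69 and a share of 82.02%. Tns2, a tensin of focal adhesions, had medians of 40.5 and 0 CPM, a ratio of 2.51 and a share of 78.9%. Cldn7, a tight junction claudin, had reads in every cell of both groups, from 43.9 to 2166 CPM in the high and from 36.2 to 717 CPM in the low cells, with a share of 77.1%. Efna5, the guidance ligand ephrin-A5, had medians of 149 and 58.1 CPM and a share of 77.1%. Akap13, an anchor for protein kinase A and activator of RhoA, had a ratio of 1.57 and a share of 78.6%, and Cmtm6, a membrane protein of the MARVEL family, 1.73 and 78.3%. Dnajb13, a J-domain protein of the axoneme, had a ratio of 2.00 and a share of 77.6%, and Fam98c 2.10 and 80.2%. Within the Xist cells Cmtm6, Mthfd1 and Efna5 fell under the 75% share, to 72.8%, 71.9% and 72.8%, and Efna5 and Cldn7 under the fold, to ratios of 0.90 and 0.90. The shares there were 84.3% for Litaf, 79.2% for Tns2, 76.5% for Akap13, 76.2% for Dnajb13 and 78.4% for Fam98c. The exons of Litaf, Fam98c, Dnajb13 and Mthfd1 overlap genes on the other strand.

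The genes lower in the high cells had varied roles too. Slc25a42, the mitochondrial coenzyme A carrier, had reads in 8 high and 17 low cells, with medians of 0 and 45.02 CPM, a ratio of -2.58 and a share of 19.8%. Rab11fip3, an effector of recycling endosomes, ran from 0 to 217 CPM in the high cells (median 33.7) and from 4.45 to 416 CPM in the low cells (median 128), with a ratio of -1.38 and a share of 20.9%. Srebf2, the master regulator of cholesterol synthesis, had medians of 38.9 and 113 CPM and a share of 21.3%. Tmcc2 had medians of 67.2 and 300.4 CPM and a share of 22.9%. Among the Xist cells these 4 had shares of 21.3%, 21.3%, 23.9% and 24.7%.

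Among the other lower genes, Tial1, an RNA-binding protein of stress granules, had medians of 23.4 and 115 CPM and a share of 23.3%. Ubqln2, a shuttle factor to the proteasome, had a share of 23.97%, and 1 high cell gave 68.6% of its high counts. Sppl3, an intramembrane protease, had reads in 11 high and 20 low cells and a share of 23.1%. Ndufaf3, an assembly factor of respiratory complex I, had medians of 44.6 and 117 CPM and a share of 23.3%, and within the Xist cells it lost both limits, with a ratio of -0.71 and a share of 31.5%. Sipa1l1, a GTPase activator of Rap, Adprhl1 and the zinc finger gene Zfp560 had shares of 24.2%, 23.8% and 21.3%. Gpx2-ps1 is a pseudogene whose reads may come from its parent gene, and its share was 22.4%. Ranked among the Xist cells, Zfp560, Sipa1l1 and Gpx2-ps1 missed the 25% limit, at 28.1%, 25.9% and 25.9%, and Adprhl1 lay at the limit. Tial1, Ubqln2 and Sppl3 had 21.3%, 22.2% and 14.8% there. The exons of Rab11fip3, Tmcc2, Sppl3 and Ndufaf3 overlap genes on the other strand.

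**Figure D5:**
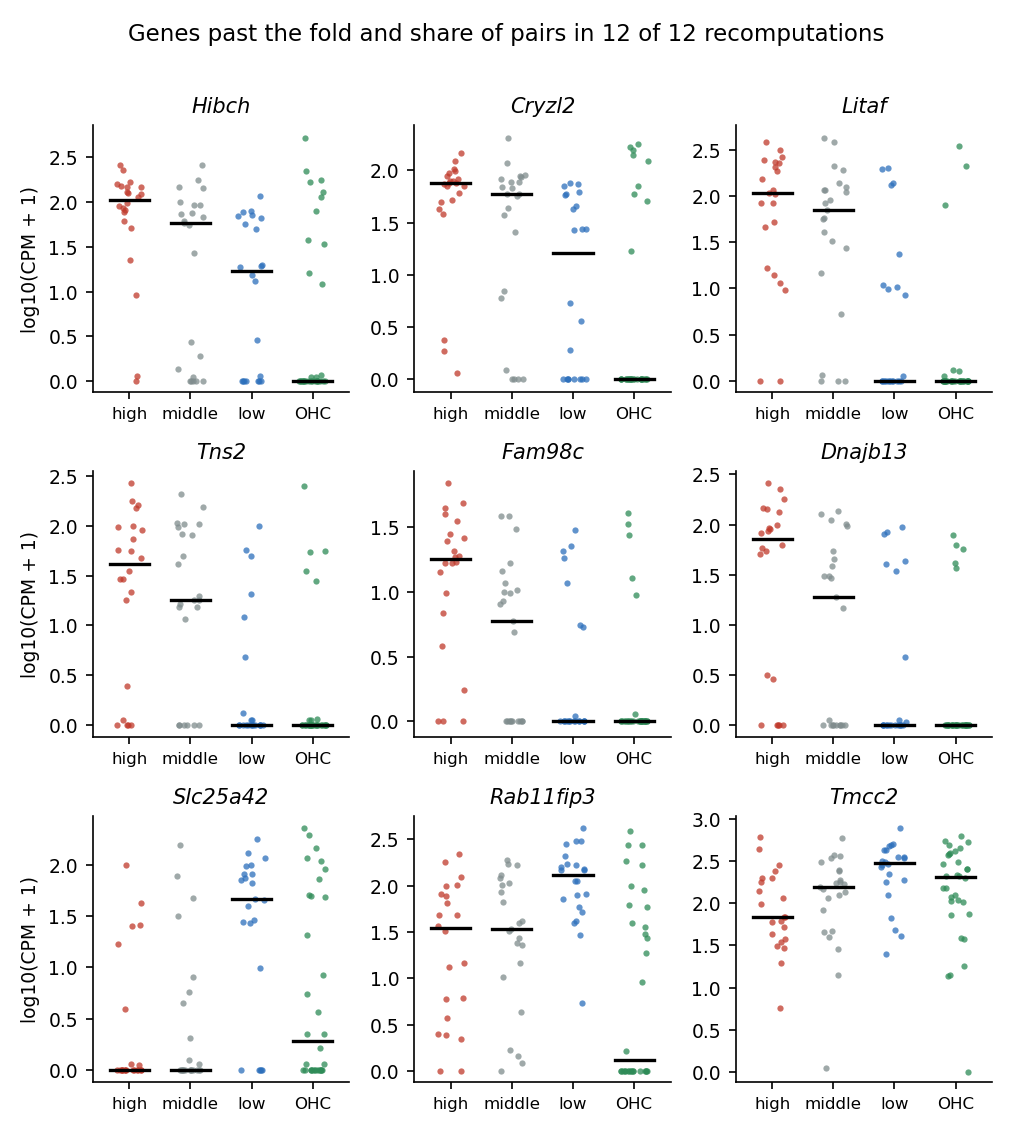
CPM per cell on a log10(CPM + 1) scale for the 9 named genes that stayed past both limits in 12 of 12 recomputations, in 22 high, 23 middle and 22 low cIHCs and 32 OHCs; each point is a cell and the black line is the median. Hibch, Cryzl2, Litaf, Tns2, Fam98c and Dnajb13 have higher medians in the high than in the low cells, Slc25a42, Rab11fip3 and Tmcc2 lower ones, and the points overlap in each panel. The 12 are not all the recomputations made, and Fam98c is not measured at the 50 CPM limit.

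The same ranking was applied to the 32 OHCs, cells that the rule did not use. The 10 highest OHCs ran from 19.1 to 1045 CPM in summed Fos, Egr1 and Atf3 and the 10 lowest were all at 0. Fos reached 10 CPM in 12 OHCs, Egr1 in 1 and Atf3 in 0, so the OHC ranking is mostly one by Fos. With only 10 cells a side, 23.9% of the 9521 genes measured there had a ratio of at least 1 and 24% a ratio of at most -1. Of the 26 higher genes, 23 were measured in both cell types, and they lay on both sides of 0 in the OHCs. Past the fold in the same direction were 9 (39.1%, against 20.4% of the 8048 genes measured in both): Adk, Akap13, Dnajb13, Efna5, Gm6831, Msrb2, Mthfd1, Odr4 and Tns2. Past the fold in the opposite direction were 8 (34.8%, against 22.1%): Hibch, Gcsh, Litaf, Fam98c, Cmtm6, 1810024B03Rik, Arxes1 and Skap2. Among these 8, Hibch, Litaf, Fam98c and Cmtm6 were under 10 CPM in the high OHC sum, so that reaching the level fixed their direction. Of the 9, 7 were under 10 CPM in the low OHC sum, so that reaching the level fixed their direction. Among them Dnajb13, Gm6831, Msrb2 and Mthfd1 had no read in the 10 low OHCs, and Tns2 had reads in more of the low than of the high OHCs, with a share of 37%. Of the lower genes, 2 of 19 (10.5%, against 22.1%), Gdpd5 and Tmcc2, were past the fold in the same direction and 5 (26.3%, against 20.4%) in the opposite one. Of the early genes, 4 of 22 (18.2%, against 20.4%) were past the fold upward in the high OHCs, namely Crem, Ier2, Jund and Nr4a1, and Nr4a1 was lower in the high cIHCs. Of the same 22 genes, Mafk, Klf6, Mafg, Zfp36 and Errfi1 were past the fold downward there, against 22.1% of the 8048 genes measured in both. Nr4a1 had no read in the low OHCs, and Mafk, Klf6 and Mafg were under 10 CPM in the high OHC sum. Reaching the level fixed the direction of these genes. The OHC values are a description with no test, and the calls in the cIHCs draw no support from them.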

How the data were processed

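The 99 single-cell libraries were deposited by the authors as 1 table of raw read counts per gene, with 55291 genes. HISAT2 2.2.1, StringTie 2.2.1, featureCounts 2.0.1 and the mm10 build are named, per the submitters' processing notes, without the role of each; the annotation, the strand setting and any filter are not given in the sources used here. Without the strand setting, reads of genes that overlap on opposite strands could be counted together, which touched 51 of the 180 genes checked in GENCODE M21.

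From the counts, CPM per cell, pooled CPM, log2 ratios (a group under 3 counts was set to 3 counts) and pair shares were computed with pandas 2.3.3 and numpy 2.4.6. No test was run, since each condition is 1 sample. The numbers in the titles name cells and no animal. A gene was measured at 10 CPM or more in the larger sum. Named genes are the 12 with the highest and the 12 with the lowest pair share among those past both limits (a log2 ratio of 1 or more with a 75% share, or of -1 or less with a 25% share), with at least 20 CPM in the larger sum and detection in 75% or more of that group's cells, besides the listed genes. The shares of 65% and 35% were added after seeing the data. The members, lists and rules were chosen with earlier results of these data known. Intervals are exact Poisson or conditional binomial intervals at 95%. The code was tested on simulated data. Alternatives included TMM from edgeR 4.0.16, median-of-ratios scaling, thinning, other level limits, other rankings and the Xist cells alone. Doublets were not called, because each cell was picked by hand. Promoter sequences are from RefSeq on GRCm38.p6.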

Additional observations from a re-analysis of the deposited data

How the results depend on the processing

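With 26 higher and 20 lower genes past both limits as reported, the counts became 40 and 31 without the highest cell of each gene in each group, 128 and 108 with the 16 highest against the 16 lowest cells, 57 and 41 with only the Xist cells of the same groups, 51 and 39 with a ranking among the 55 Xist cells, 880 and 758 without the rule on pairs, and 644 and 495 with shares of 65% or 35% alone; at 50 CPM the lower count became 11. The median log2 ratio of the early lists, 0.53 as reported, stayed above 0 in each recomputation: 0.61 with mean CPM per cell, 0.35 with medians of log2(CPM + 1), 0.52 with TMM, 0.51 with median-of-ratios scaling, 0.52 with totals without mitochondrial genes, 0.62 without the highest cells, 0.60 with thinned cells, 0.57 at 50 CPM, 0.74 with no level filter, 0.52 with a ranking by mean rank, 0.54 with 16 against 16 cells, 0.60 with only Xist cells, 0.58 with the Xist ranking and 0.44 without the low cells under 1 CPM. The Xist ranking, the removal of low cells under 1 CPM and the shares alone were added after seeing the data. The cause of these shifts was not tested. Of the 24 genes named for their pair share, 9 stayed past both limits in 12 of 12 recomputations and the others in 8 to 11. These 12 are not all the recomputations listed above. Fam98c, 1 of the 9, had 20.5 pooled CPM in the high cells and is not measured at the 50 CPM limit. The 3-gene ranking matters: with a ranking by mean rank, 18 of the 26 higher and 10 of the 20 lower genes were shared with the reported ones. No paired analysis was possible because the title numbers name no animal, and no test was run. The numbers are not without order, since the cells with Y-linked reads are those titled 1 to 12. Counting error is small at this depth, and the number of mice, not given in the sources used here, limits what the spread between cells can say.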
